A study of Tursiops truncatus with 17 samples.

Results

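The potassium channel genes described here are the 87 protein-coding genes, of 21265 genes in the files, whose symbol starts with KCN followed by a subfamily letter, leaving out KCNJ8. They were chosen by name, with no measured value in the rule, and fall into 21 subfamilies, the largest being KCNK with 14 genes, KCNJ with 13 and KCNH with 8. Messenger RNA was sequenced from frozen cerebral cortex kept from necropsies of 17 bottlenose dolphins (Tursiops truncatus), 1 library per animal. The 9 bloom animals were sampled in a bloom season and the 8 non-bloom animals outside it, and the genotype of both groups is labelled WT. Age, sex, sampling date, cause of death and sequencing batch are not in the labels used here, so season and any batch that went with it cannot be told apart. Whole cortex was extracted, which mixes neurons, glia and vessels. In such bulk tissue fewer cells of a type and less RNA per cell cannot be told apart.

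Potassium channels let potassium leave the cell along its gradient, which sets the resting potential, ends action potentials and limits repetitive firing. Voltage-gated pore subunits assemble as tetramers, often with silent modifier subunits and with auxiliary subunits that change gating or trafficking. Other pore families open to calcium, sodium, G proteins or metabolism, or carry leak and inward currents, and in the brain several inward rectifiers serve glial uptake of potassium.

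Values are the deposited ones, CPM computed on library sizes scaled by TMM, the trimmed mean of M values. The log2 changes are bloom minus non-bloom on the log2(value + 1) scale. Libraries held 7680050 to 12572653 reads in the bloom group and 12346713 to 15635292 in the non-bloom group. Bloom 5, bloom 6 and bloom 9 stood apart from the other libraries. Mitochondrial transcripts took 57.0%, 33.5% and 77.2% of their reads, against 1.47% to 19.5% in the other 6 bloom libraries and 9.68% to 22.1% in non-bloom libraries. Their remaining reads numbered 4039857, 6719605 and 1753299. The tissue label was checked with marker lists of 9 cell classes, and no pan-neuronal, excitatory, interneuron, astrocyte or oligodendrocyte marker in the files was listed at 0 in any library. Summed pan-neuronal markers were 2616, 4115 and 7846 in bloom 5, 6 and 9, 6219 to 11285 in the other bloom libraries and 8677 to 15018 in non-bloom libraries. Summed oligodendrocyte markers were 14075 to 19085 in bloom 5, 6 and 9, 4262 to 8567 in the other bloom libraries and 1647 to 7876 in non-bloom libraries. MBP weighs most in this sum and alone reached 16198 in a bloom library. The mean log2 value of the same markers was 7.26, 8.41 and 7.74 in bloom 5, 6 and 9. It was 7.63 to 8.04 in the other bloom libraries and 6.17 to 8.14 in non-bloom libraries, so bloom 5 and 9 were not high across the list. Log2 changes that moved by over 1.5 times without these 3 libraries are therefore given both ways.

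Reads of the 87 genes made up 0.133% to 0.380% of the non-mitochondrial reads in bloom libraries (median 0.308%) and 0.303% to 0.439% in non-bloom libraries (median 0.350%). The 3 lowest shares were those of bloom 5 (0.133%), bloom 6 (0.178%) and bloom 9 (0.224%). The filter on low counts kept 67 of the 87 genes, and 20 were not tested. Those 20 were KCNA10, KCND1, KCNE2, KCNE4, KCNG4, KCNH8, KCNJ1, KCNJ5, KCNJ13, KCNJ15, KCNK5, KCNK6, KCNK7, KCNK13, KCNK16, KCNK18, KCNMB1, KCNRG, KCNS1 and KCNV2. No value of theirs exceeded 3.75 in any library, and no reads were counted for KCNJ1 and KCNV2.

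In bloom cortex 5 genes fell and none rose, so 5 of the 67 tested genes (7.46%) passed at an adjusted p under 0.05 in limma-trend. Over all 13552 genes tested the percentage called was 9.16% in either direction, 4.69% lower and 4.47% higher, so the share among the channel genes lay near that background. The genes that fell were KCNN4, KCNC2, KCNMB2, KCNIP1 and KCNJ3. At an unadjusted p under 0.05, 26 channel genes were lower and 6 higher, against 19.0% lower and 16.4% higher over all genes. The log2 change was negative for 47 of the 67 (70.1%) and for 50.3% of all genes, and the median was -0.42 for the channel genes and -0.0034 for all genes. No channel gene had groups that did not overlap, while 0.657% of all genes did. On the recovered reads, edgeR's quasi-likelihood test called KCNN4 and KCNC2 lower and KCNJ14 higher, and it called 8.29% of all genes, 2.19% lower and 6.10% higher. DESeq2 called 7 channel genes lower and 5 higher, and 23.4% of all genes, 9.05% lower and 14.4% higher. Its lower calls were KCNN4, KCNC2, KCNMB2, KCNIP1, KCNJ3, KCNAB1 and KCNS3. Its higher calls were KCNH4, KCNJ12, KCNJ14, KCNJ16 and KCNK3.

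Without bloom 5, 6 and 9, limma-trend called 2 channel genes of 68 tested, KCNN4 lower and KCNH4 higher, and 2.34% of all genes, 0.659% lower and 1.68% higher. The median log2 change of the channel genes was then -0.17. Of the 67 genes, 63 kept the sign of their change and 57 had a smaller one. The sign turned for KCNA4 (-0.40 with all libraries, 0.21 without the 3), KCNIP2 (-0.054 and 0.12), KCNJ11 (-0.12 and 0.05) and KCNT1 (-0.082 and 0.31). Leaving out any 1 library moved the number of lower calls between 0 and 18. The number was 18, 16 and 13 without bloom 1, 4 and 8; 2, 1, 0 and 1 without bloom 2, 5, 6 and 7; and 1, 0, 2, 3, 0, 1 and 0 without non-bloom 1, 2, 3, 4, 6, 7 and 8. With the pan-neuronal marker level (mean log2 value) as a covariate, 0 channel genes passed (4 of all genes did), 33 changes were positive and 34 negative, and the median was -0.012. With the oligodendrocyte marker level as a covariate 0 genes passed, of the channel genes or of all genes. The changes of the channel genes were then positive for 24 and negative for 43, and the median was -0.40.

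**Figure D1:**
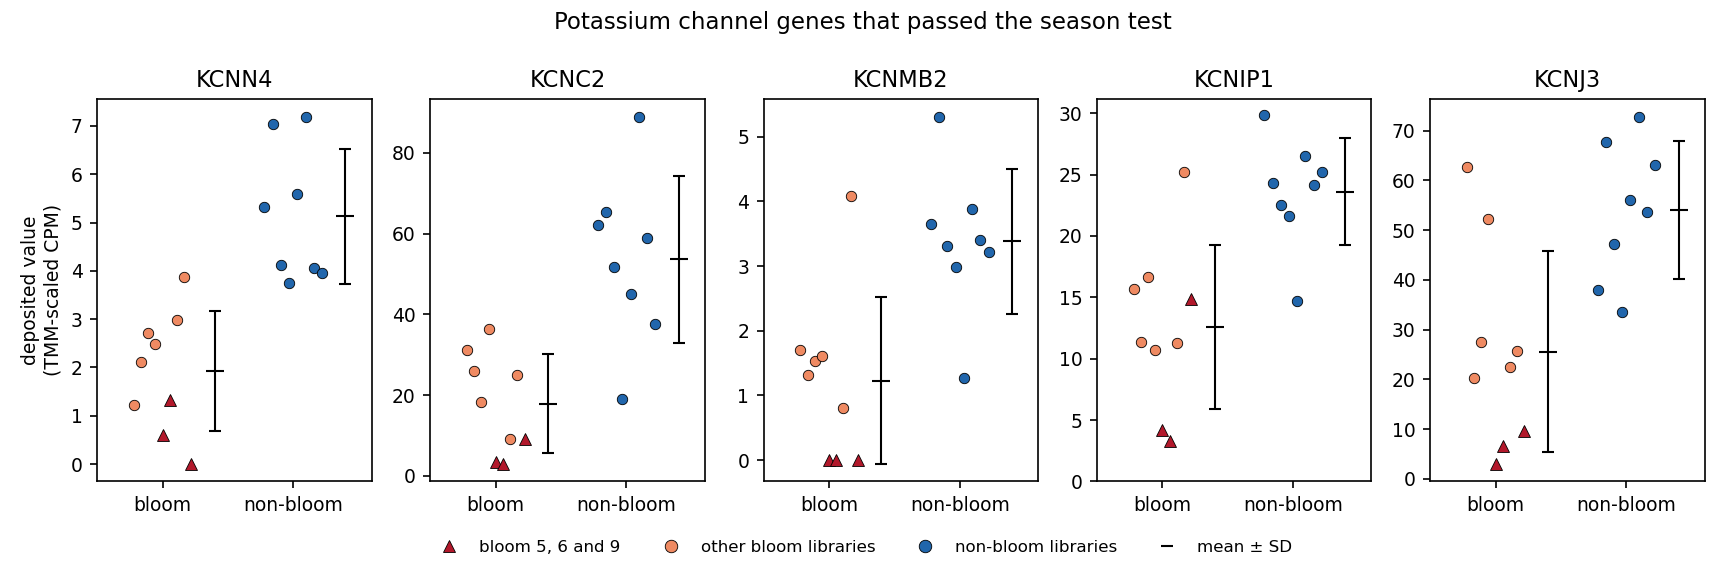
Deposited value (CPM with TMM-scaled library size, linear axis) of the 5 genes that passed the season test, one point per library, bloom left of non-bloom, with the mean and SD beside each group. Triangles mark bloom 5, 6 and 9; 8 of 9 bloom libraries lie below every non-bloom library for KCNN4, and all groups overlap.

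KCNC2 encodes a Kv3 channel, whose fast opening and closing allows high firing rates, and in rodent cortex it is known from fast-spiking interneurons (ENSTTRG00000013226, GeneScaffold_2465, positions 94182 to 284009). Its lowest, median and highest values were 2.91, 18.2 and 36.3 in bloom libraries and 19.0, 55.3 and 89.0 in non-bloom libraries. All 9 bloom libraries lay below the non-bloom median and 5 below every non-bloom library; bloom 6 was lowest, and non-bloom 4 was the non-bloom library that reached into the bloom range. The means were 17.9 ± 12.4 in bloom and 53.6 ± 20.8 in non-bloom libraries (SD, n = 9 and 8), and the log2 change was -1.80 (SE 0.44, adjusted p = 0.0310). The change was -1.12 (SE 0.31, adjusted p = 0.0655) without bloom 5, 6 and 9. The call was lost when bloom 5, 6 or 7 or non-bloom 1, 2, 6, 7 or 8 was left out, with log2 changes of -1.99 to -1.57 and adjusted p up to 0.0686 over the 17 such fits. KCNC1 and KCNC4 had changes of -1.16 and -0.87, or -0.24 and -0.31 without bloom 5, 6 and 9, and neither passed in these fits. KCNC4 passed in 2 of the 17 fits that left out 1 library, with adjusted p down to 0.0327.

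KCNN4 encodes the intermediate-conductance calcium-activated channel, known best from blood cells and epithelia and also described in microglia and neurons of rodents (ENSTTRG00000007048, GeneScaffold_635, positions 8014 to 19793). It had values of 0, 2.11 and 3.88 (lowest, median, highest) in bloom libraries and 3.74, 4.72 and 7.19 in non-bloom libraries. Of the 9 bloom libraries 8 lay below the lowest non-bloom library; bloom 8 alone reached into the non-bloom range and bloom 9 had no reads. Means were 1.93 ± 1.24 in bloom and 5.13 ± 1.39 in non-bloom libraries (SD, n = 9 and 8), and the log2 change was -1.18 (SE 0.27, adjusted p = 0.0268). Without bloom 5, 6 and 9 it was -0.79 (SE 0.19, adjusted p = 0.0408), the one lower call that remained. Leaving out bloom 6 or non-bloom 2, 6 or 8 ended the call, the log2 changes being -1.29 to -1.002 over the 17 fits and the highest adjusted p 0.0640. The 5 microglial markers in the files summed to 0.336 to 26.3 in bloom libraries and 1.27 to 238 in non-bloom libraries, and AIF1, CX3CR1, P2RY12 and C1QB were listed at 0 in at least 1 bloom library. All 4 tested microglial markers had negative log2 changes, with a median of -1.17. In limma-trend 0 of the 4 passed and 1 had an unadjusted p under 0.05, while edgeR's quasi-likelihood test called CSF1R lower (adjusted p = 0.0370). The marker sum was 238, 151 and 75.6 in non-bloom 3, 7 and 8, where KCNN4 was 4.12, 4.07 and 3.97. In the other non-bloom libraries the sum was 1.27 to 5.28 and KCNN4 was 3.74 to 7.19. The part of the microglial markers in the KCNN4 values was not tested.

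KCNMB2 encodes a beta subunit that makes the large-conductance calcium-activated channel inactivate (ENSTTRG00000006462, scaffold_103566, positions 45257 to 75152). Its values were 0, 1.32 and 4.08 in bloom libraries and 1.27, 3.36 and 5.31 in non-bloom libraries (lowest, median, highest). No reads were counted in bloom 5, 6 and 9, where 3 reads would have had values of 0.597, 0.363 and 1.71. Those of bloom 5 and 6 lie below the lowest non-bloom value, and that of bloom 9 lies above it. Levels under these values could have been missed, which in bloom 9 includes the low end of the non-bloom range. Bloom 8 was the highest bloom library at 4.08 and non-bloom 5 the lowest non-bloom library at 1.27, so the groups overlapped. The log2 change was -1.13 (SE 0.30, adjusted p = 0.0367), and -0.65 (SE 0.23, adjusted p = 0.116) without bloom 5, 6 and 9. The call was lost in 10 of the 17 fits that left out a library (bloom 2, 5, 6 or 7, or non-bloom 1, 2, 3, 6, 7 or 8), with log2 changes of -1.31 to -1.01 and adjusted p up to 0.0793.

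KCNIP1 encodes a calcium-binding KChIP subunit of the Kv4 channels (ENSTTRG00000001372, GeneScaffold_3011, positions 19547 to 243152). The lowest, median and highest values were 3.27, 11.4 and 25.2 in bloom libraries, against 14.7, 24.2 and 29.8 in non-bloom libraries. Of the 9 bloom libraries 5 lay below every non-bloom library, bloom 6 and bloom 5 lowest, and bloom 8, at 25.2, lay above the non-bloom median. The log2 change was -1.02 (SE 0.29, adjusted p = 0.0436), and -0.65 (SE 0.18, adjusted p = 0.0689) without bloom 5, 6 and 9. It was lost in 11 of the 17 fits that left out a library (bloom 2, 5, 6 or 7, or any non-bloom library except non-bloom 5), with log2 changes of -1.17 to -0.84 and adjusted p up to 0.0835.

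KCNJ3 encodes GIRK1, a subunit of the inward rectifiers that G proteins open behind inhibitory receptors (ENSTTRG00000003758, GeneScaffold_2271, positions 83022 to 132052). Values were 2.99, 22.5 and 62.7 in bloom libraries and 33.6, 54.9 and 72.8 in non-bloom libraries (lowest, median, highest). Bloom 1 and bloom 4, at 62.7 and 52.2, lay inside the non-bloom range, and the other 7 bloom libraries lay below it. The log2 change was -1.45 (SE 0.43, adjusted p = 0.0468), and -0.69 (SE 0.25, adjusted p = 0.121) without bloom 5, 6 and 9. The call held in 3 of the 17 fits that left out a library, those without bloom 1, 4 or 8, with log2 changes of -1.66 to -1.16 and adjusted p up to 0.0900. Of these 5 genes, edgeR's quasi-likelihood test called KCNC2 (log2 change -1.56, adjusted p = 0.0365) and KCNN4 (-1.30, adjusted p = 0.0324). For KCNIP1, KCNJ3 and KCNMB2 its adjusted p was 0.0568, 0.0868 and 0.0918.

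Interneuron and excitatory markers also had negative log2 changes, of unlike size. All 10 interneuron markers were negative and 5 passed in limma-trend. The changes ran from -2.51 for GAD1 to -0.033 for PVALB (SE 0.56, adjusted p = 0.971 in limma-trend). Without bloom 5, 6 and 9 they were -1.62 for GAD1 and -0.11 for PVALB, and 2 of the 10 markers passed. PVALB averaged 19.6 ± 19.3 in bloom and 18.6 ± 16.7 in non-bloom libraries (SD, n = 9 and 8). Its relation to KCNC2 was not tested. The summed value of the 10 was 60.7 to 431 in bloom libraries and 291 to 727 in non-bloom libraries. It was 128 to 431 in the 6 bloom libraries other than 5, 6 and 9. All 8 excitatory markers were negative and 1 passed, with sums of 480 to 3526 in bloom libraries and 2451 to 4101 in non-bloom libraries. Their median log2 change was -0.86 with all libraries. Without bloom 5, 6 and 9 it was -0.24 and 0 passed. The part of either list in the channel results was not tested beyond the pan-neuronal covariate given above. Of the other lists, 1 of 11 pan-neuronal markers and 1 of 2 oligodendrocyte precursor markers were lower, 1 of 6 endothelial markers was higher, and 0 of 6 pericyte and smooth muscle markers passed in limma-trend (2 at an unadjusted p under 0.05, and 0 in edgeR's test).

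**Figure D2:**
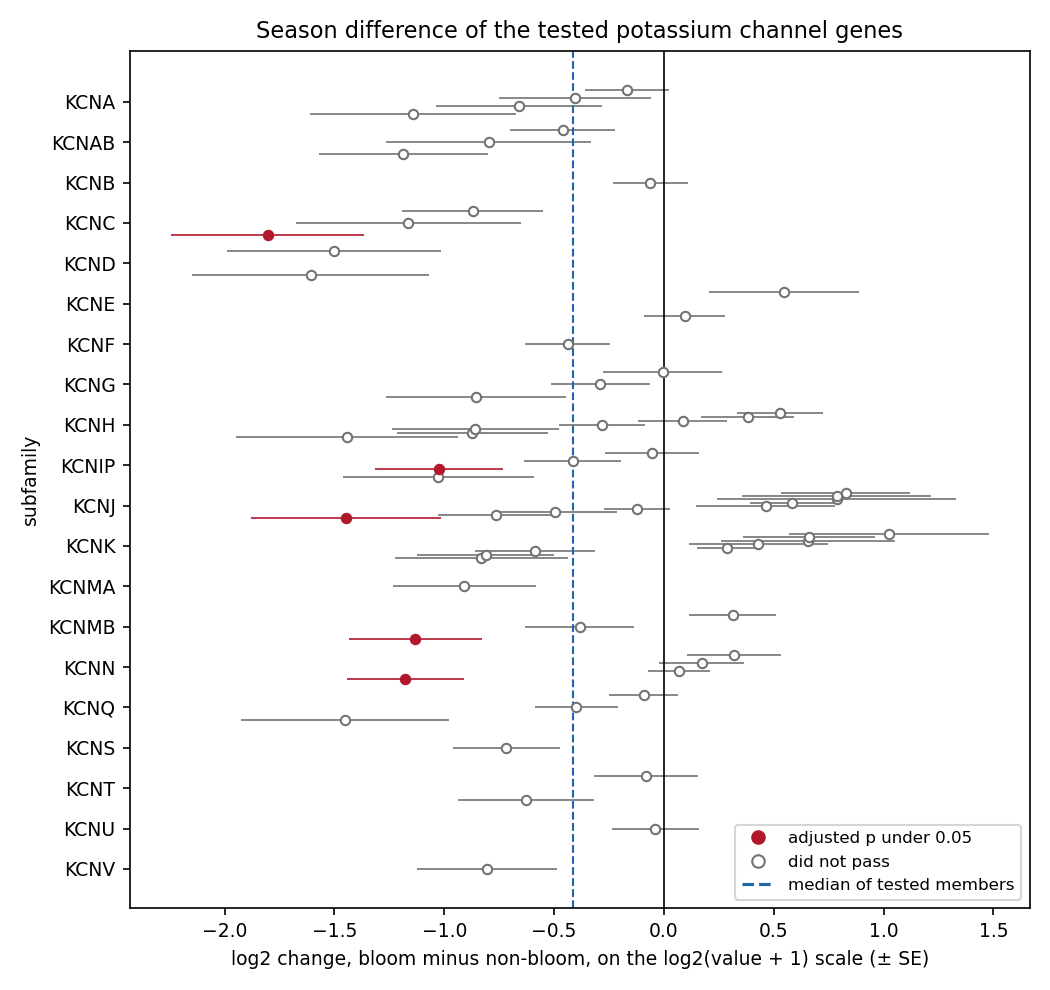
Log2 change (bloom minus non-bloom, on the log2(value + 1) scale, with SE) of 63 of the 67 tested genes by subfamily. Filled points passed at an adjusted p under 0.05, and the dashed line is the median of all 67, -0.42; all plotted KCNA, KCNB, KCNC and KCND points lie left of 0, while 5 of 9 KCNJ and 5 of 8 KCNK points lie right of it.

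The pore subunits of the Kv1 to Kv4 channels (KCNA, KCNB, KCNC and KCND) carry the delayed-rectifier and A-type currents of neurons. All 12 tested had negative log2 changes, from -1.80 (KCNC2) to -0.062 (KCNB2) with a median of -0.90, and 1 passed. The median was -0.33 without bloom 5, 6 and 9, where 11 of the 12 were negative. With the pan-neuronal covariate the median was -0.067. KCND2 and KCND3, the Kv4 subunits behind the dendritic A-type current, had the largest changes in this class after KCNC2. KCND2 had values of 1.19, 22.9 and 52.6 in bloom libraries and 36.6, 42.0 and 75.1 in non-bloom libraries (lowest, median, highest), and a log2 change of -1.61 (SE 0.54, adjusted p = 0.0591). Below every non-bloom library lay 7 of the 9 bloom libraries, bloom 5 lowest at 1.19, and bloom 1 and 4 lay inside the non-bloom range. KCND3 had values of 0, 8.73 and 18.0 in bloom libraries and 11.4, 17.3 and 32.8 in non-bloom libraries, and a log2 change of -1.50 (SE 0.49, adjusted p = 0.0549). Bloom 6 had no KCND3 reads, and 6 bloom libraries lay below the non-bloom range. The changes were -0.57 for KCND2 and -0.63 for KCND3 without bloom 5, 6 and 9. Both passed when bloom 1, 4 or 8 was left out, with adjusted p down to 0.0269 for KCND2 and 0.0266 for KCND3.

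KCNA1, a Kv1 subunit of axons and terminals, had values of 2.86, 16.1 and 53.1 in bloom libraries and 19.4, 27.2 and 69.6 in non-bloom libraries (lowest, median, highest). Its log2 change was -1.14 (SE 0.47, adjusted p = 0.0964), and -0.58 without bloom 5, 6 and 9; without bloom 4 it passed, at an adjusted p of 0.0407. The non-bloom libraries were themselves spread, with non-bloom 5 and 6 at 65.6 and 69.6 and the other 6 at or below 35.0. KCNA2, KCNA4 and KCNA6 had changes of -0.66, -0.40 and -0.17, or -0.37, 0.21 and -0.18 without bloom 5, 6 and 9. KCNB2 encodes a subunit of the Kv2 channels, which cluster on the cell body and proximal dendrites. It had values of 23.7, 33.1 and 48.0 in bloom libraries and 21.2, 36.3 and 44.9 in non-bloom libraries, a log2 change of -0.062 (SE 0.17, adjusted p = 0.812), and -0.0036 without bloom 5, 6 and 9. Bloom 9 was the highest of all libraries for KCNB2.

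**Figure D3:**
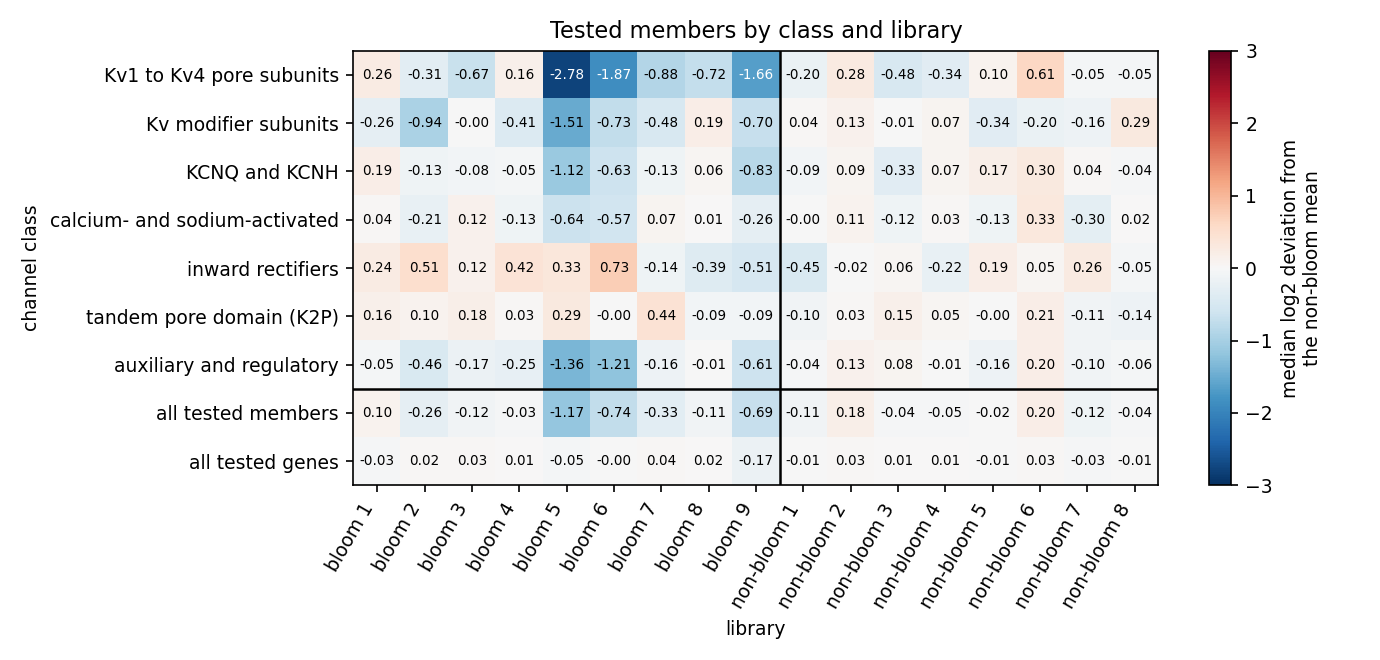
Median over the tested genes of each class of the log2(value + 1) deviation from the non-bloom mean, for each library, bloom columns left of non-bloom columns. The Kv1 to Kv4 row reads -2.78, -1.87 and -1.66 in bloom 5, 6 and 9, against -0.88 to 0.26 in the other bloom libraries and -0.48 to 0.61 in non-bloom libraries, and the row of all tested genes stays between -0.17 and 0.04.

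Modifier subunits form no working channel alone and change the Kv2 channels they join. All 6 tested had negative log2 changes (median -0.58, and -0.31 without bloom 5, 6 and 9) and none passed. KCNS3 had values of 1.71, 7.63 and 9.77 in bloom libraries and 8.81, 10.2 and 13.7 in non-bloom libraries (lowest, median, highest), and a log2 change of -0.72 (SE 0.24, adjusted p = 0.0608). Below every non-bloom library lay 8 of the 9 bloom libraries, and bloom 2 alone lay inside the non-bloom range. KCNS3 passed when bloom 1, 4 or 8 was left out (adjusted p down to 0.0405), and its change was -0.38 without bloom 5, 6 and 9. KCNV1, which silences or shifts Kv2 currents, had values of 13.9, 49.0 and 84.0 in bloom libraries and 50.2, 70.2 and 93.1 in non-bloom libraries, with a change of -0.81 (SE 0.32, adjusted p = 0.0891) and of -0.27 without bloom 5, 6 and 9. It passed without bloom 1 or 8, at an adjusted p down to 0.0422. KCNF1 had values of 91.4, 194 and 257 in bloom libraries and 183, 236 and 287 in non-bloom libraries, and a change of -0.44 (SE 0.19, adjusted p = 0.118). Bloom 9, low for many channel genes, was the highest bloom library for KCNF1 at 257. KCNG1 had a change of -0.86 (SE 0.41, adjusted p = 0.141), or -0.35 without bloom 5, 6 and 9. The changes of KCNG3 and KCNG2 were -0.29 and -0.0056, or -0.051 and -0.22 without those 3.

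Most KCNQ genes encode subunits of the M current, which muscarinic receptors shut, and the KCNH genes encode the ether-a-go-go family. Of 12 tested genes 8 had negative and 4 positive log2 changes, with a median of -0.34 (-0.13 without bloom 5, 6 and 9), and none passed with all libraries. KCNQ5 had values of 1.94, 15.5 and 38.4 in bloom libraries and 19.4, 39.4 and 45.0 in non-bloom libraries (lowest, median, highest), and a log2 change of -1.45 (SE 0.47, adjusted p = 0.0557). Of the bloom libraries 6 lay below every non-bloom library, bloom 5 and 6 lowest, and the change was -0.58 without bloom 5, 6 and 9. It passed without bloom 1, 4 or 8, with adjusted p down to 0.0240. KCNQ3 had values of 174, 260 and 411 in bloom libraries and 220, 276 and 344 in non-bloom libraries, and a change of -0.093 (SE 0.16, adjusted p = 0.684). In bloom 9 KCNQ3 had its highest value of all libraries. KCNQ1 had a change of -0.40, or -0.19 without bloom 5, 6 and 9.

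KCNH1, the gene of the ether-a-go-go channel itself, had values of 0.571, 6.62 and 24.8 in bloom libraries and 8.91, 20.1 and 26.3 in non-bloom libraries (lowest, median, highest). The log2 change was -1.44 (SE 0.50, adjusted p = 0.0647), and -0.62 without bloom 5, 6 and 9; without bloom 1 or 4 it passed, at an adjusted p down to 0.0252. Bloom 9 and 5 were the lowest libraries, at 0.571 and 0.597, and bloom 1 and 4 lay above the non-bloom median. KCNH3, a gene of the ELK group of this family, had values of 79.1, 126 and 235 in bloom libraries and 99.1, 130 and 174 in non-bloom libraries, and a change of 0.085 (SE 0.20, adjusted p = 0.777). The KCNH3 groups overlapped on both sides, 2 bloom libraries lying below and 4 above the non-bloom range. KCNH4, also of the ELK group, had values of 8.48, 13.9 and 26.3 in bloom libraries and 6.76, 10.2 and 11.8 in non-bloom libraries, and a log2 change of 0.53 (SE 0.20, adjusted p = 0.0757). Above the highest non-bloom library lay 7 of the 9 bloom libraries, and bloom 5 and 6 lay inside the non-bloom range. Without bloom 5, 6 and 9 it rose by 0.61 (SE 0.15, adjusted p = 0.0424), and its groups then did not overlap, which held for 1 channel gene and for 1.14% of all genes. The gap was narrow, from 11.84 in non-bloom 6 to 11.95 in bloom 4. KCNH5 and KCNH7 had changes of -0.86 and -0.87, KCNH2 of -0.28 and KCNH6 of 0.38. Without bloom 5, 6 and 9 these were -0.28 for KCNH5, -0.42 for KCNH7, -0.039 for KCNH2 and 0.19 for KCNH6. Of the 17 fits that left out 1 library, KCNH7 passed in 2 (adjusted p down to 0.0359) and KCNH5 in 1 (adjusted p = 0.0459). KCNH2, KCNH4, KCNH5, KCNH6 and KCNH7 were chosen for naming after their values were seen.

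Among the pores opened by calcium or sodium (KCNMA, KCNN, KCNT, with their relative KCNU), 5 of 8 had negative log2 changes, the median was -0.060 (-0.020 without bloom 5, 6 and 9), and KCNN4 alone passed. KCNMA1, the pore of the large-conductance BK channel, had values of 14.1, 75.4 and 118 in bloom libraries and 84.6, 116 and 137 in non-bloom libraries (lowest, median, highest). Below the non-bloom range lay 6 bloom libraries, and the log2 change was -0.91 (SE 0.32, adjusted p = 0.0682), or -0.39 without bloom 5, 6 and 9. Leaving out bloom 1, 4 or 8 brought KCNMA1 past the threshold (adjusted p down to 0.0340). The 3 small-conductance SK genes, which carry the afterhyperpolarization, had small positive changes. KCNN1 had values of 26.4, 30.0 and 65.7 in bloom libraries and 17.5, 30.1 and 45.5 in non-bloom libraries, with a change of 0.17 (SE 0.19, adjusted p = 0.528), or 0.081 without bloom 5, 6 and 9; bloom 9, at 65.7, was far above the other bloom libraries. KCNN2 and KCNN3 had changes of 0.069 and 0.32.

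The sodium-activated channels are encoded by KCNT1 and KCNT2. KCNT1 had values of 32.6, 86.5 and 98.9 in bloom libraries and 50.4, 75.0 and 108 in non-bloom libraries (lowest, median, highest). Its log2 change was -0.082 (SE 0.24, adjusted p = 0.819) with all libraries and 0.31 (SE 0.15, adjusted p = 0.235) without bloom 5, 6 and 9, so the sign turned, although neither value passed. Bloom 5, 6 and 9, at 39.8, 46.3 and 32.6, were the 3 lowest of the 17 libraries, and the other 6 bloom libraries lay between 79.8 and 98.9. KCNT2 had values of 1.21, 6.01 and 12.8 in bloom libraries and 5.74, 8.07 and 13.3 in non-bloom libraries, with a change of -0.63 (SE 0.31, adjusted p = 0.155) and of -0.16 without those 3 libraries. KCNU1, known as a sperm channel in mouse and human, had values of 4.16, 6.99 and 16.6 in bloom libraries and 6.64, 7.65 and 8.91 in non-bloom libraries and a change of -0.039 (SE 0.20, adjusted p = 0.902), or -0.087 without those 3 libraries. Its non-bloom libraries lay close together, and bloom libraries lay both below and above them.

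The inward rectifiers (KCNJ) and the tandem pore domain channels (KCNK, the leak channels) were the classes with positive medians. For KCNJ the median log2 change was 0.46 over 9 tested genes, with and without bloom 5, 6 and 9, and 5 changes were positive and 4 negative. For KCNK it was 0.36 over 8 genes (0.24 without those libraries), with 5 positive and 3 negative. With the pan-neuronal covariate the medians were 0.13 and 0.18. Only KCNJ3, described above, passed in limma-trend.

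**Figure D4:**
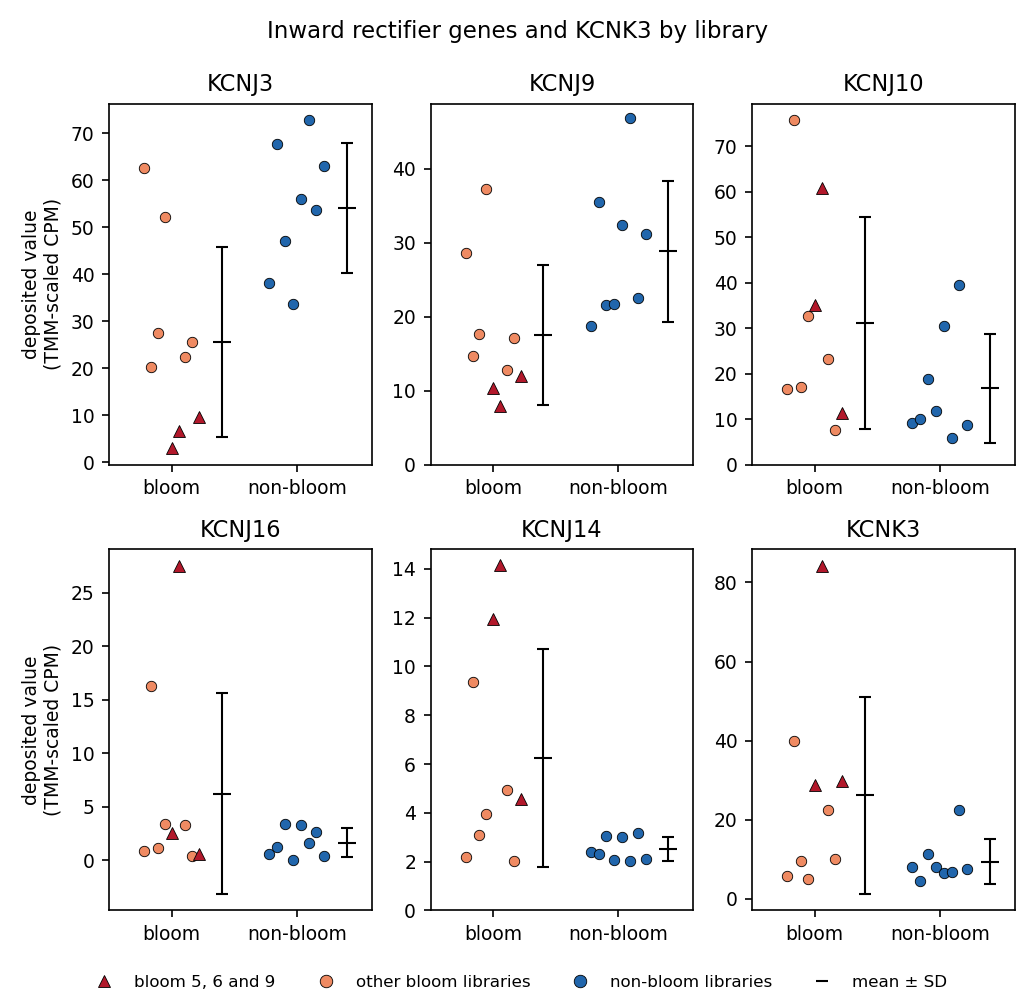
Deposited value (CPM with TMM-scaled library size, linear axes) of 5 inward rectifier genes and KCNK3, one point per library, bloom left of non-bloom, with mean and SD. KCNJ3 and KCNJ9 lie mostly below the non-bloom libraries in the bloom group, while KCNJ10, KCNJ14, KCNJ16 and KCNK3 spread upward in some bloom libraries and overlap the non-bloom group.

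The other tested genes of the GIRK group also had negative changes. KCNJ9 (GIRK3) had values of 7.88, 14.7 and 37.3 in bloom libraries and 18.8, 26.9 and 46.9 in non-bloom libraries (lowest, median, highest), and a log2 change of -0.77 (SE 0.26, adjusted p = 0.0609). Below the non-bloom range lay 7 of the 9 bloom libraries, and bloom 1 and 4 lay inside it, as for KCNJ3. KCNJ9 passed without bloom 1 or 4, at an adjusted p down to 0.0224, and its change was -0.46 without bloom 5, 6 and 9. KCNJ6 (GIRK2) had a change of -0.50 (SE 0.28, adjusted p = 0.207), or -0.29 without those 3. KCNJ11, the pore of the channel closed by ATP, had a change of -0.12 (SE 0.15, adjusted p = 0.560), or 0.05 without them. KCNJ6, KCNJ9 and KCNJ11 were chosen for naming after their values were seen.

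KCNJ10 and KCNJ16 encode subunits that in rodent brain form the inward rectifier of astrocytes and oligodendrocytes. KCNJ10 had values of 7.70, 23.1 and 75.9 in bloom libraries and 5.92, 10.9 and 39.4 in non-bloom libraries (lowest, median, highest), and a log2 change of 0.79 (SE 0.43, adjusted p = 0.193). Bloom 2 (75.9) and bloom 6 (60.9) lay above every non-bloom library and the other 7 bloom libraries inside the non-bloom range. KCNJ16 had values of 0.395, 2.59 and 27.5 in bloom libraries and 0.0624, 1.44 and 3.38 in non-bloom libraries and a change of 0.79 (SE 0.55, adjusted p = 0.298). The same bloom 2 and bloom 6 were its highest libraries, at 16.2 and 27.5, and bloom 4 reached 3.43. Leaving out bloom 5, 6 and 9 gave changes of 0.67 for KCNJ10 and 0.58 for KCNJ16. On the recovered reads, edgeR's quasi-likelihood test gave 0.90 (adjusted p = 0.162) for KCNJ10 and 1.92 (adjusted p = 0.1003) for KCNJ16. DESeq2 gave 0.90 for KCNJ10 (adjusted p = 0.121) and 1.92 for KCNJ16 (adjusted p = 0.0488), so KCNJ16 passed in DESeq2. All 8 astrocyte markers had positive log2 changes; 0 passed in limma-trend (3 at an unadjusted p under 0.05) and 3 in edgeR's test. Their sum was 5073 to 6839 in bloom 5, 6 and 9, 390 to 4281 in the other bloom libraries and 320 to 1800 in non-bloom libraries. Bloom 2 held the 4281. GFAP weighs most in this sum and alone reached 6021 in a bloom library. All 9 oligodendrocyte markers were positive and 2 passed. With the oligodendrocyte level as a covariate the changes were 0.071 (SE 0.52) for KCNJ10 and -0.15 (SE 0.65) for KCNJ16. With the pan-neuronal level they were 0.23 (SE 0.46) for KCNJ10 and 0.18 (SE 0.60) for KCNJ16. The part of the astrocyte list was not tested.

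KCNJ14, an inward rectifier of the Kir2 group, had values of 2.04, 4.57 and 14.2 in bloom libraries and 2.04, 2.34 and 3.17 in non-bloom libraries (lowest, median, highest). The non-bloom libraries lay within a narrow range, 6 bloom libraries lay above it, and bloom 6 (14.2) and bloom 5 (11.9) were highest. The log2 change was 0.83 (SE 0.29, adjusted p = 0.0667) in limma-trend. edgeR's quasi-likelihood test called it higher (log2 change 1.30, adjusted p = 0.0396), and so did limma-trend without bloom 1 or 8, at an adjusted p down to 0.0310. It was 0.46 (SE 0.23, adjusted p = 0.243) when bloom 5, 6 and 9 were left out. KCNJ12, of the same group, had a change of 0.58 (SE 0.19, adjusted p = 0.0558), with values of 4.15 to 14.9 (median 8.36) in bloom libraries and 4.12 to 8.05 (median 4.95) in non-bloom libraries, and passed without bloom 4, 7 or 8 or non-bloom 4 (adjusted p down to 0.0420). Near-identical copies of KCNJ12 are known in human, and how shared reads were counted is not stated in the labels, so its value is uncertain. KCNJ2 had a change of 0.46.

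KCNK3 (TASK1), an acid-sensitive leak channel, had values of 4.97, 22.6 and 84.2 in bloom libraries and 4.45, 7.75 and 22.5 in non-bloom libraries (lowest, median, highest). Above the highest non-bloom library lay 5 bloom libraries, bloom 6 at 84.2, and the other 4 overlapped the non-bloom range. Its log2 change in limma-trend, 1.02 (SE 0.46, adjusted p = 0.119), was the largest positive one of the 67 there, and it was 0.45 without bloom 5, 6 and 9. On the recovered reads, edgeR's quasi-likelihood test gave 1.47 (adjusted p = 0.0624) for KCNK3. DESeq2 gave 1.49 (adjusted p = 0.0183), so KCNK3 passed in DESeq2. In edgeR's test KCNJ16 (1.92) and KCNE3 (1.59) had larger changes. KCNK12, a halothane-inhibited relative that carries little current alone, had values of 20.1, 26.2 and 125 in bloom libraries and 11.9, 20.7 and 30.9 in non-bloom libraries. Bloom 9 stood far above the rest at 125, and the log2 change of 0.66 (SE 0.30, adjusted p = 0.126) was 0.27 without bloom 5, 6 and 9. KCNK2 (TREK1), opened by stretch and lipids, had values of 0.571, 4.00 and 7.86 in bloom libraries and 4.62, 6.57 and 12.7 in non-bloom libraries. Of the bloom libraries 6 lay below the non-bloom range, and the change was -0.81 (SE 0.31, adjusted p = 0.0818), or -0.31 without bloom 5, 6 and 9. It passed without bloom 1 or 4, with adjusted p down to 0.0448. The remaining tested KCNK genes had changes of -0.83 (KCNK1), -0.59 (KCNK9), 0.29 (KCNK10), 0.43 (KCNK4) and 0.66 (KCNK17), and none of them passed. Without bloom 5, 6 and 9 they were -0.14 for KCNK1, -0.24 for KCNK9, 0.24 for KCNK10, 0.24 for KCNK4 and 0.67 for KCNK17.

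Auxiliary and regulatory subunits (KCNAB, KCNE, KCNIP and KCNMB) numbered 12 tested genes, 9 with negative and 3 with positive log2 changes, a median of -0.44 (-0.18 without bloom 5, 6 and 9) and 2 lower calls, KCNIP1 and KCNMB2. KCNAB1, a cytoplasmic beta subunit of Kv1 channels, had values of 12.7, 77.7 and 135 in bloom libraries and 108, 131 and 156 in non-bloom libraries (lowest, median, highest). Of the bloom libraries 7 lay below the non-bloom range, bloom 5 and 6 lowest, and the log2 change was -1.19 (SE 0.38, adjusted p = 0.0547), or -0.55 without bloom 5, 6 and 9. It passed without bloom 1, 4 or 8, with adjusted p down to 0.0279. KCNAB2, its relative, had values of 107, 287 and 306 in bloom libraries and 188, 328 and 448 in non-bloom libraries and a change of -0.46 (SE 0.24, adjusted p = 0.172), or -0.15 without bloom 5, 6 and 9. Bloom 5 and 6 were the only bloom libraries below the non-bloom range for KCNAB2. KCNAB3 had a change of -0.80, or -0.32 without those 3 libraries.

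KCNIP3, a KChIP that also acts as a transcriptional repressor, had values of 15.4, 34.7 and 47.7 in bloom libraries and 25.6, 37.9 and 70.2 in non-bloom libraries (lowest, median, highest), and a log2 change of -0.42 (SE 0.22, adjusted p = 0.180), or -0.085 without bloom 5, 6 and 9. Non-bloom 6, at 70.2, stood above the other non-bloom libraries. KCNIP4 and KCNIP2 had changes of -1.03 and -0.054, or -0.37 and 0.12 without those libraries. KCNMB4, the neuronal beta subunit of BK channels, had values of 25.4, 56.0 and 111 in bloom libraries and 44.5, 73.7 and 90.5 in non-bloom libraries and a change of -0.38 (SE 0.25, adjusted p = 0.266), or -0.22 without those 3. Its lowest and highest libraries were both bloom libraries, bloom 6 and bloom 8. KCNMB3 had a change of 0.31, or 0.11 without them. KCNE3, a single-pass partner of KCNQ1 in epithelia, had values of 0, 0.946 and 6.18 in bloom libraries and 0.0795, 0.466 and 1.31 in non-bloom libraries, with a change of 0.55 (SE 0.34, adjusted p = 0.248), or 0.28 without them. Bloom 4 and 9 had no KCNE3 reads while bloom 5 and 6 had the highest values of all libraries. In bloom 9, 3 reads would have had a value of 1.71, above the non-bloom range, so the 0 there does not show a low level. On the recovered reads, edgeR's quasi-likelihood test gave KCNE3 a change of 1.59 (adjusted p = 0.113). KCNE1 had a change of 0.094.

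Partner subunits were compared within each library as the difference of their log2(value + 1) levels, for 15 pairs that share a channel or a scaffold neighbourhood. None of the 15 differences passed after adjustment over the pairs (two-sided exact permutation test over samples, 24310 arrangements), with or without bloom 5, 6 and 9. The lowest p was that of KCNJ3 against KCNJ6, whose difference was 2.82 ± 0.99 in bloom and 3.77 ± 0.14 in non-bloom libraries (SD, n = 9 and 8), a change of -0.95 (exact permutation p = 0.00675, adjusted p = 0.101), or -0.41 without bloom 5, 6 and 9. Below every non-bloom library lay 6 of the 9 bloom libraries. For KCNJ3 against KCNJ9 the change was -0.68 (exact permutation p = 0.0146, adjusted p = 0.110), or -0.24 without those 3. For KCNC2 against KCNC1 it was -0.64 with all libraries (exact permutation p = 0.0561, adjusted p = 0.210) and -0.87 without bloom 5, 6 and 9 (exact permutation p = 0.0137 over 3003 arrangements, adjusted p = 0.177). The glial partners KCNJ10 and KCNJ16 had a difference of 2.66 in both groups on this scale (SD 0.69 in bloom and 0.70 in non-bloom libraries). The pseudocount of 1 understates changes of a gene as low as KCNJ16, and on the recovered reads the edgeR changes given above, 0.90 for KCNJ10 and 1.92 for KCNJ16, were not equal; their difference was not tested there. KCNJ10 and KCNJ9 lie 37406 bases apart on one scaffold and had opposite signs: their difference was 0.61 ± 1.36 in bloom and -0.94 ± 1.13 in non-bloom libraries (exact permutation p = 0.0223, adjusted p = 0.111).

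Across libraries, the lowest of the 17 values belonged to bloom 5, 6 or 9 for 47 of the 67 tested genes, ties included (70.1%), and for 52.0% of all 13552 genes. Bloom 5 was lowest for 22 channel genes (32.8%, against 17.7% of all genes), bloom 6 for 14 (20.9%, against 9.82%) and bloom 9 for 16 (23.9%, against 25.6%). Median deviations of the channel genes from the non-bloom mean were -1.17 in bloom 5, -0.74 in bloom 6 and -0.69 in bloom 9, against -0.33 to 0.10 in the other bloom libraries and -0.12 to 0.20 in the non-bloom libraries. Bloom 9, with the fewest non-mitochondrial reads, was also the highest library for 13 channel genes (19.4%), near its 20.5% of all genes. Non-bloom 6 was the highest library for 21 channel genes (31.3%, against 10.1% of all genes), and its summed pan-neuronal markers, 15018, were the highest of all 17 libraries.

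Genes outside the KCN family that handle potassium or anchor its channels were counted from lists drawn up beside the channel genes. Of 22 tested anchoring and auxiliary genes, 3 fell and 1 rose, with a median log2 change of -0.44 (-0.22 without bloom 5, 6 and 9). Over all tested genes 4.69% were called lower and 4.47% higher, 9.16% in either direction, which is the background for each call in these lists. CNTNAP2, which holds Kv1 channels beside the node of Ranvier, averaged 59.8 ± 23.6 in bloom and 119 ± 36.9 in non-bloom libraries (SD, n = 9 and 8), a log2 change of -1.02 (adjusted p = 0.0323). AMIGO1, a Kv2 partner, changed by -1.40, EPB41L3, a cytoskeletal anchor, by -0.58, and LGI4, a secreted glial protein of peripheral myelin in mice, by 1.36. Of 5 tested genes of the HCN pacemaker channels and their partner, 2 fell, HCN3 (-0.94) among them, and 0 rose. Of 9 tested genes of the sodium-potassium pump, 1 fell and 1 rose, the latter being FXYD1, a glial regulator (1.26). Of 7 cation-chloride cotransporter genes, SLC12A4 rose (1.12). Without bloom 5, 6 and 9, when 2.34% of all genes were called, SLC12A4 (0.89, adjusted p = 0.0468) and 1 gene of the HCN list passed. The changes of CNTNAP2 (-0.75), AMIGO1 (-0.71), EPB41L3 (-0.37), LGI4 (0.84), HCN3 (-0.47) and FXYD1 (0.61) did not.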

How the data were processed

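According to the labels, about 100 mg of each dolphin's frozen cortex was extracted. Messenger RNA libraries then took 600 ng of RNA and 14 PCR cycles. A median RNA integrity number of 9.1 is also given there, with a confidence interval of 8.9 to 9.5. That interval belongs to the median and is not the range over libraries. Trim Galore 0.6.1 and STAR 2.5.2a are the tools listed in the submitters' processing notes. The counting tool, strand setting, build of the genome and annotation were not given in the sources used here, and scaffold positions are those of the files. The deposited signal is 1 value per gene and library. Every nonzero value was a whole multiple of 1 read within 0.01, and the divisors equalled TMM-scaled library sizes recomputed here (largest deviation 1.3e-11), so the values are CPM on TMM-scaled libraries.

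Groups follow the treatment label. Season was tested with limma-trend on log2(value + 1), as the only term and over all 17 libraries, after edgeR's filterByExpr by group on the recovered reads (minimum count 10, minimum total 15), with Benjamini-Hochberg adjustment over 13552 genes and a threshold of 0.05. Gene lengths were not used, so the level difference of a pair of genes is read only between seasons, and the mean value, which depends on length, served only to pick genes to name. Named genes are those that passed; in each subfamily the tested gene with the highest mean value and the one with the smallest p; and the 5 largest changes in each direction. Other tested genes are also given with values, KCNJ12, KCNC4 and KCNK1 among them. These were not picked by this rule and are not among the 33 named genes counted below. Some genes are not reported here, by name or in the plot of changes, and stay in the fits and counts. The channel genes, classes, lists, pairs and tests were chosen with earlier results of these data known. The test was run on simulated data first. Each library is 1 dolphin, so the spread is that between animals. Floors of 3 reads cover counting error only. Alternatives were other scalings, filters, pseudocounts and tests, left-out libraries and marker covariates; edgeR without bloom 5, 6 and 9, and the pairs without these libraries, were added after the data were seen. Software was R 4.3.3 with limma 3.58.1, edgeR 4.0.16 and DESeq2 1.42.0.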

Additional observations from a re-analysis of the deposited data

Results flagged for a closer look

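In 66 groups of values (33 named genes in each season), 7 held 1 library whose distance from its nearest neighbour was large against the range of its group. A chance rate of about 1 group in 20 assumes normally distributed values and independent groups. These groups share the same 17 libraries and all 7 marked values were the highest of their group, so the count is not compared with that rate. Bloom 9 was high for KCNK12 (125) and KCNN1 (65.7), bloom 6 for KCNK3 (84.2) and bloom 8 for KCNMB2 (4.08). Non-bloom 6 was high for KCNIP3 (70.2) and KCNK2 (12.7), and non-bloom 7 for KCNK3 (22.5). Bloom 9 and bloom 6 are among the libraries with many mitochondrial reads, and non-bloom 6 had the highest pan-neuronal marker sum; the part of either in these values was not tested.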

How the results depend on the processing

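No paired analysis was possible because the labels give the libraries no replicate numbers: those used here follow accession order within each season and pair no animals. Relative log expression scaling, upper-quartile scaling and a filter of a value of at least 1 in 8 libraries left 5 genes lower and 0 higher. Without a filter 2 genes were lower, and 2 with a pseudocount of 0.1. edgeR gave 2 lower and 1 higher, DESeq2 7 lower and 5 higher, and limma-voom with quality weights 19 lower and 4 higher. Without bloom 5 and 9 there was 1 lower; without bloom 5, 6 and 9 there were 1 lower and 1 higher, and with edgeR on those 14 libraries 0 lower and 1 higher. With the pan-neuronal covariate 0 were lower, and 0 with the oligodendrocyte covariate. Leaving out 1 library gave 0 to 18 lower and 0 to 2 higher. The cause of these differences was not tested.

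Of 983 recomputed log2 changes of 33 named genes, 840 kept direction and side of the threshold, 79 lost the call, 43 (14 genes) gained it and 21 (10 genes) turned sign. With the pan-neuronal covariate the sign turned for KCNAB2 (0.083), KCNB2 (0.20), KCNE3 (-0.079), KCNQ3 (0.13), KCNT2 (0.12), KCNT1 (0.32) and KCNU1 (0.091), and with the oligodendrocyte covariate for KCNJ16 (-0.15), KCNMB4 (0.051) and KCNU1 (0.11). Over the fits that left out 1 library, KCNH3 ran from -0.0065 (without bloom 9) to 0.19, KCNT1 from -0.16 to 0.049 and KCNU1 from -0.17 to 0.049. KCNT1 turned to 0.18 with quality weights, 0.014 without bloom 5, 0.049 without bloom 9, 0.18 without bloom 5 and 9, 0.31 without bloom 5, 6 and 9, and 0.28 with edgeR on those 14 libraries. KCNU1 turned to 0.017 with edgeR, and to 0.049, 0.000245 and 0.019 without bloom 4, 5 and 6. Bloom 9 holds 1753299 non-mitochondrial reads, so a gene with a value under 1.71 is under 3 reads there.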
